A study of Homo sapiens with 2 samples.

Results

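The cholesterol synthesis and SREBP genes were read here in PLC8024 cells with and without the MAEL gene. They were 28 genes, taken by symbol from the deposited table of read counts, which lists 58735 genes. They comprised 18 enzymes of the synthesis route, 5 genes of its sterol-sensing control and 5 genes of cholesterol transport and esterification. PLC8024 (PLC/PRF/5, Alexander cells) is an established epithelial hepatoma line that was grown in high-glucose medium with serum. The study compared 1 library of wild-type, non-treated cells (MAEL WT) with 1 library of cells in which MAEL, a gene expressed mainly in testis and in some cancers, had been targeted with an sgRNA and Cas9 (MAEL KO). For the knockout, cells sorted for mCherry were seeded to obtain single clones, so that the effect of the deletion and a difference between clones cannot be told apart. Library names are those of the labels throughout.

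Cholesterol is built from acetyl-CoA by way of mevalonate, isoprenoid diphosphates, squalene and lanosterol. When sterols are scarce in the endoplasmic reticulum, SCAP escorts the membrane-bound SREBP proteins to the Golgi, where they are cut and release a transcription factor that switches on the genes of the route. INSIG proteins hold SCAP back when sterols are plentiful, and the liver is a main site of both synthesis and clearance of cholesterol.

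Total counts were 19904136 in MAEL WT and 20833332 in MAEL KO, and all 28 genes were among the 17887 that reached 10 counts in either library, called tested here. MAEL itself had 1 count in MAEL WT and 0 in MAEL KO, so the labels could not be checked by the targeted gene. The paper reports the highest MAEL level among its lines in these cells, with Western blots. The RNA of MAEL WT does not show such a level, so a loss of MAEL RNA could not be seen. All 9 hepatocyte markers were past 3 counts in both libraries, but their summed FPKM (fragments per kilobase of gene, scaled to library size) was 2307 in MAEL WT and 4289 in MAEL KO, with ALB at 59 and 8550 counts. The other markers were summed at 219.6 and 363.6 FPKM for 4 epithelial genes, 32.48 and 22.16 for 4 leukocyte genes, 2.085 and 2.795 for 3 endothelial genes and 1.27 and 0.2781 for 5 fibroblast genes. EPCAM, an epithelial surface marker, had 15 counts in MAEL WT and 0 in MAEL KO, while KRT8, KRT18 and CDH1 had log2 fold changes of 1.14, 0.41 and 0.60. LYZ, with 1251 and 737 counts, made up nearly all of the leukocyte sum, whereas PTPRC, the pan-leukocyte marker, had 3 and 0, and CD3E, a T cell marker, had 0 in both. The part of these marker differences in the results was not tested, and in bulk RNA fewer cells of a type and less RNA per cell cannot be told apart.

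SREBP acts at sterol-regulated promoters together with the factor NF-Y, whose box is CCAAT. Promoters to print were chosen by fold change, from genes past a log2 of 1 and the lowest ones, NPC1 and SREBF2. ACAT2 and SOAT2 had no promoter sequence in the source used, and annotated exons filled the upstream bases of EBP and NPC1. NPC1 had no CCAAT, so the printed boxes do not stand for all genes. The promoters of the 4 genes left are printed. Each is 150 bases of the gene's strand on GRCh38.p14, ending just before the gene's start in the count table, with CCAAT or its reverse, ATTGG, in capitals, and in SREBF2 also the SREBP core. HMGCS1 lies at chr5:43313513-43313662 (minus strand), IDI1 at chr10:1049171-1049320 (minus), NSDHL at chrX:152830817-152830966 (plus) and SREBF2 at chr22:41832929-41833078 (plus). The last printed base lies 101 bases before the RefSeq start for HMGCS1, 52 for IDI1, 97 for NSDHL and 27 for SREBF2. Boxes closer to that start are therefore counted in the text but not printed. In IDI1 a box at -215 from the RefSeq start is also counted but lies upstream of the print, which begins 201 bases before that start.
HMGCS1: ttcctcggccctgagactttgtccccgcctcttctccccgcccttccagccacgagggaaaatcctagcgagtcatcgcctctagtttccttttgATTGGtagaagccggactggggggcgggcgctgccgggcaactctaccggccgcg
IDI1: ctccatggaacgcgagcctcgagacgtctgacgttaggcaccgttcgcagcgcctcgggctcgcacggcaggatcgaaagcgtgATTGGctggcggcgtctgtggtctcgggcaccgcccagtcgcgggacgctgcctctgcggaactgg
NSDHL: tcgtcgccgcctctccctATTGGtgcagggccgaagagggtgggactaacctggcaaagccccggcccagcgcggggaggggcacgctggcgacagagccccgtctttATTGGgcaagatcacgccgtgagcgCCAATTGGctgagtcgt
SREBF2: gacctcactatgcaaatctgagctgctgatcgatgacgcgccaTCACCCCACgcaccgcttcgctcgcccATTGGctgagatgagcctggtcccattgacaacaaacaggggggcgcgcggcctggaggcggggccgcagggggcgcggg

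HMGCS1 makes HMG-CoA, IDI1 isomerises isopentenyl diphosphate, NSDHL removes a methyl carbon late in the route, and SREBF2 encodes the SREBP that chiefly drives the synthesis genes. Over windows from 250 bases before to 50 after each RefSeq start, read on both strands, CCAAT was present for 18 of the 24 genes that had a window, against 39.7% of all 27305 genes with one. The 6 without it were CYP51A1, INSIG2, NPC1, PMVK, SCAP and SREBF1. The SP1 box GGGCGG was present for 22 of 24, against 48.3% of all genes, and the E-box CACGTG for 4 (INSIG1, LSS, SC5D and SCAP), against 8.77%. The strict SREBP core TCACNCCAC was present in SREBF2 alone, against 1.39% of all genes. The shares of all genes were not limited to the tested genes, so they are not matched to the members in expression. These are matches of letters and not sites of binding, and a window without a match says nothing of the factor. ACAT2, FDFT1, SQLE and SOAT2 had no window in the table used.

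**Figure D1:**
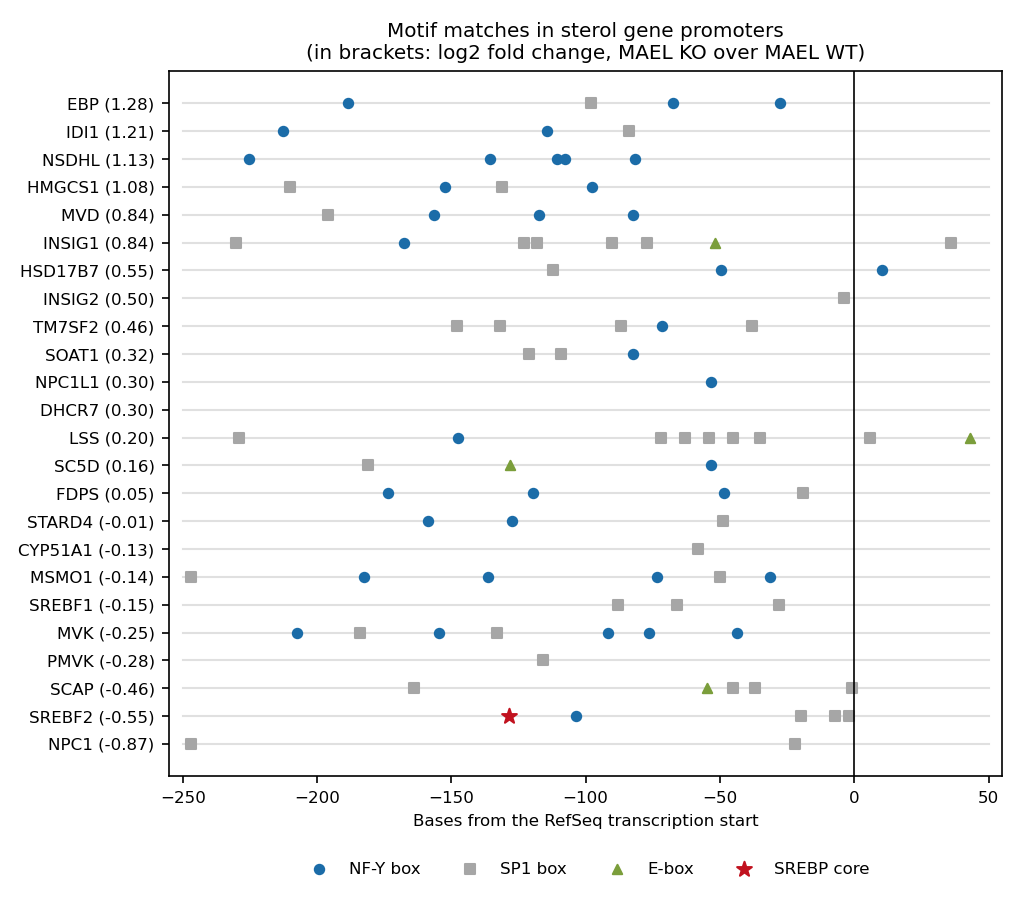
Positions of the 4 motifs in 1 promoter window per gene for 24 genes, with distance in bases from the RefSeq start on the x axis and 1 row per gene. In these nearest windows NF-Y boxes are seen in 17 genes, SP1 boxes in 21, E-boxes in 4 and the SREBP core in 1.

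The enzymes from acetyl-CoA to farnesyl diphosphate split into high and low. ACAT2, the cytosolic thiolase that joins acetyl-CoA units, had 2591 counts in MAEL WT and 5270 in MAEL KO, or 27.56 and 64.66 FPKM. HMGCS1 had 4519 and 8235 counts, or 43.94 and 92.38 FPKM. Both were over 2-fold higher in MAEL KO with TMM scaling, and HMGCS1 moved from rank 5 to rank 1 in FPKM among the 28 genes. IDI1 had 1808 and 3609 counts, or 19.02 and 43.81 FPKM. MVD, which decarboxylates mevalonate diphosphate, had 2411 and 3742 counts, or 23.37 and 41.84 FPKM. These 4 genes were higher in MAEL KO, with log2 fold changes of 1.23 for ACAT2, 1.08 for HMGCS1, 1.21 for IDI1 and 0.84 for MVD, taken between TMM-normalized counts with 1 added. Counting error alone set 95% intervals of 1.17 to 1.30, 1.02 to 1.13, 1.13 to 1.29 and 0.77 to 0.92.

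The kinases of the same stretch had lower levels in MAEL KO. MVK, mevalonate kinase, had 1516 counts in MAEL WT and 1105 in MAEL KO, or 10.7 and 8.995 FPKM, a log2 fold change of -0.25 (interval -0.36 to -0.13). PMVK, phosphomevalonate kinase, had 1466 and 1042 counts, or 52.36 and 42.94 FPKM, a log2 fold change of -0.28 (interval -0.40 to -0.17). FDPS, farnesyl diphosphate synthase, had 3517 and 3147 counts, or 43.25 and 44.65 FPKM, and its log2 fold change of 0.05 had an interval holding 0, from -0.02 to 0.12. HMGCS1 and FDPS thus stood at an FPKM ratio of 1.02 in MAEL WT and 2.07 in MAEL KO, and ACAT2 and PMVK at 0.526 and 1.51.

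**Figure D2:**
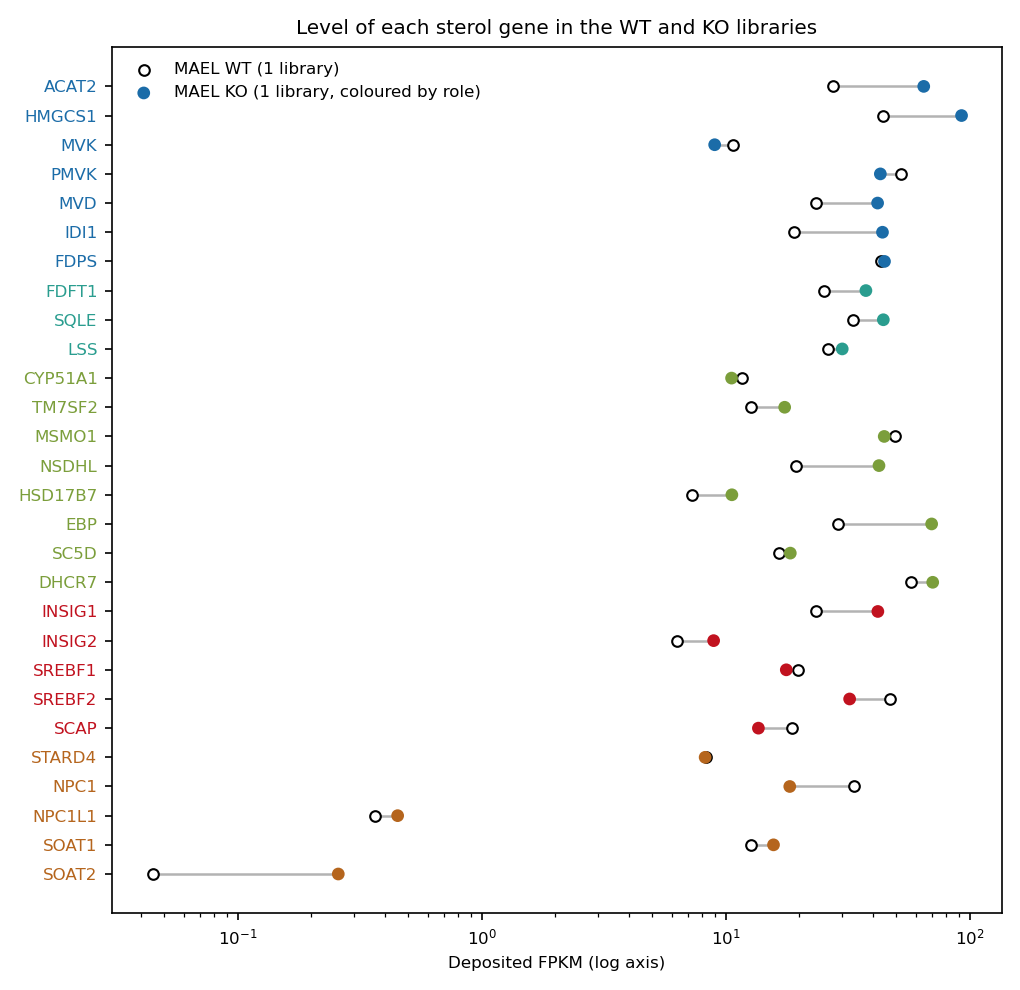
FPKM of each of the 28 genes in MAEL WT and MAEL KO on a log axis, 1 point per library, with genes ordered by role. Apart from SOAT2, at 2 and 10 counts, EBP (28.81 and 69.67), ACAT2 (27.56 and 64.66) and IDI1 (19.02 and 43.81) lie furthest apart on the higher side, and NPC1 (33.42 and 18.27) on the lower side.

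The 3 enzymes that carry farnesyl diphosphate to lanosterol were each higher in MAEL KO with TMM scaling. FDFT1, squalene synthase, had 2862 counts in MAEL WT and 3695 in MAEL KO, or 25.15 and 37.47 FPKM, a log2 fold change of 0.58 (interval 0.51 to 0.65). SQLE, squalene epoxidase, had 3122 and 3604 counts, or 33.16 and 44.16 FPKM, a log2 fold change of 0.42 (interval 0.35 to 0.49). LSS, lanosterol synthase, had 4140 and 4112 counts, or 26.15 and 29.97 FPKM, and its log2 fold change of 0.20 (interval 0.14 to 0.26) became -0.08 when libraries were scaled by total counts. The order of the 3 was FDFT1, SQLE and LSS, with intervals of LSS and SQLE apart and those of FDFT1 and SQLE apart.

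Between lanosterol and cholesterol, EBP, the sterol isomerase, had 1518 counts in MAEL WT and 3182 in MAEL KO, or 28.81 and 69.67 FPKM. NSDHL had 849 and 1604 counts, or 19.45 and 42.39 FPKM. Both X-linked genes were over 2-fold higher in MAEL KO with TMM scaling, at log2 fold changes of 1.28 (interval 1.19 to 1.37) for EBP and 1.13 (interval 1.01 to 1.25) for NSDHL, while the tested X chromosome genes had a median of -0.22. HSD17B7, a sterol ketone reductase, had 757 and 958 counts and a log2 fold change of 0.55 (interval 0.41 to 0.69). TM7SF2, a sterol C14 reductase, had 949 and 1125 counts and a log2 fold change of 0.46 (interval 0.33 to 0.58). DHCR7, which makes the last reduction in one branch, had 5220 and 5550 counts, or 57.37 and 70.37 FPKM, a log2 fold change of 0.30 (interval 0.24 to 0.35). DHCR7 was the most abundant of the 28 genes per length in MAEL WT and the next after HMGCS1 in MAEL KO.

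MSMO1, the sterol C4 methyl oxidase, had 3116 counts in MAEL WT and 2442 in MAEL KO, or 49.26 and 44.54 FPKM, a log2 fold change of -0.14 (interval -0.22 to -0.06). CYP51A1, the lanosterol demethylase, had 910 and 717 counts, or 11.61 and 10.55 FPKM, and its interval held 0 (-0.13, from -0.28 to 0.01). SC5D, the sterol desaturase, had 2003 and 1937 counts and a log2 fold change of 0.16 (interval 0.07 to 0.25) that became -0.11 with total counts. EBP stood below MSMO1 in MAEL WT, at an FPKM ratio of 0.585, and above it in MAEL KO, at 1.56. In CYP51A1, 83.2% of the exonic bases also lie in other genes, 79.4% in AC000120.2 on the same strand, which had 0 counts in both libraries. How reads in shared bases were counted is not given in the sources used here, so the level of CYP51A1 may leave such reads out. In ACAT2 the share was 52.3%, where SOD2-OT1 covered 33.9% of the exonic bases and a SOD2 entry 26.5%, both at 0 counts in both libraries, and TCP1, on the opposite strand with 8100 and 9653 counts, covered 9.2%.

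The control genes differed in direction. SREBF2 had 7794 counts in MAEL WT and 4604 in MAEL KO, or 47.15 and 32.14 FPKM, a log2 fold change of -0.55 (interval -0.60 to -0.50). SCAP had 2629 and 1657 counts, or 18.68 and 13.59 FPKM, a log2 fold change of -0.46 (interval -0.55 to -0.37). SREBF1, which encodes the SREBP with the larger share in fatty acid synthesis, had 3456 and 2691 counts and a log2 fold change of -0.15 (interval -0.22 to -0.08). These 3 were lower in MAEL KO, and the FPKM ratio of SREBF2 to SREBF1 was 2.40 in MAEL WT and 1.82 in MAEL KO. INSIG1, itself a sterol-regulated gene, had 1871 and 2902 counts, or 23.44 and 41.94 FPKM, a log2 fold change of 0.84 (interval 0.76 to 0.93). INSIG2 had 547 and 667 counts, or 6.331 and 8.907 FPKM, a log2 fold change of 0.50 (interval 0.33 to 0.66). HMGCS1 and SREBF2 were near each other in MAEL WT, at an FPKM ratio of 0.932, and apart in MAEL KO, at 2.87.

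Of the transport genes, NPC1, which moves cholesterol out of late endosomes, had 7384 counts in MAEL WT and 3499 in MAEL KO, or 33.42 and 18.27 FPKM. It was 45.2% lower in MAEL KO, the lowest log2 fold change of the 28 genes (-0.87, interval -0.93 to -0.81). STARD4, a soluble sterol carrier, had 1034 and 886 counts, and its interval held 0 (-0.01, from -0.14 to 0.12). NPC1L1, an intestinal cholesterol uptake protein, had 42 and 45 counts, too few for a direction (0.30, from -0.33 to 0.95). SOAT1, the widely expressed cholesterol acyltransferase, had 1933 and 2081 counts, or 12.62 and 15.67 FPKM, a log2 fold change of 0.32 (interval 0.23 to 0.41). SOAT2, the acyltransferase of hepatocytes and enterocytes, had 2 and 10 counts, a ratio of 5.79 with a counting interval from 1.23 to 54.3. SOAT1 exceeded SOAT2 in both libraries, by 282 in MAEL WT and 60.7 in MAEL KO on the FPKM scale.

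**Figure D3:**
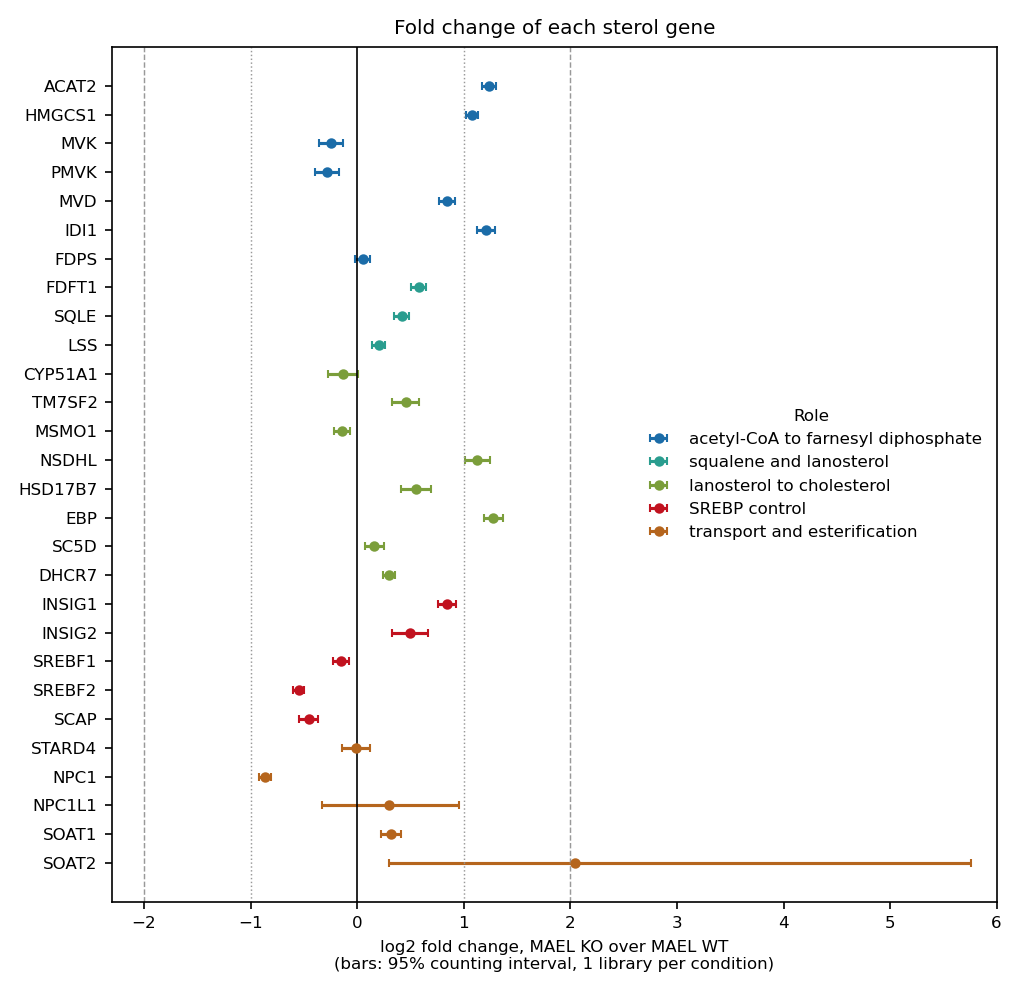
Log2 fold change (MAEL KO over MAEL WT) for each of the 28 genes by role, with 95% Clopper-Pearson intervals that cover counting error only. Synthesis enzymes lie mostly above 0, up to 1.28 for EBP, while SREBF2 (-0.55), SCAP (-0.46) and NPC1 (-0.87) lie below it.

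Taken as a list, 19 of the 28 genes were above 0 and 9 below, where 48.0% of all tested genes were above 0. Their median log2 fold change was 0.31 against -0.04 over all 17887 tested genes. Among genes that reached 100 counts in either library these medians were 0.308 and 0.066. Intervals lay wholly above 0 for 17 genes and below for 7, and held 0 for 4. Over all tested genes they lay above 0 for 6220 and below for 6207, and held 0 for 5460. The 19 and the 17 include SOAT2. Past a log2 fold change of 1, ACAT2, HMGCS1, IDI1, EBP and NSDHL were higher and 0 genes were lower, against 10.2% of tested genes higher and 16.5% lower. SOAT2 also lay past 1 (2.04), but it reached the 10 counts only through MAEL KO and was under the floor of 3 counts in MAEL WT, so it is not read as higher. Among genes that reached 100 counts in either library these shares were 9.23% and 9.16%, and 5 of 26 members were higher and 0 lower. Past a log2 of 2, the fold part of the study's criterion, there was SOAT2 alone, on the same terms, and 0 lower. Of the tested genes 2.16% were higher and 5.64% lower past 2. With total counts the median of all tested genes moved to -0.31, and higher genes made up 22.6% rather than 38.2% of all genes past 1, and 17.0% rather than 27.7% of those past 2. Under that scaling 16 of the 28 genes were above 0, 2 were past 1 (EBP and SOAT2) and NPC1 was past -1.

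**Figure D4:**
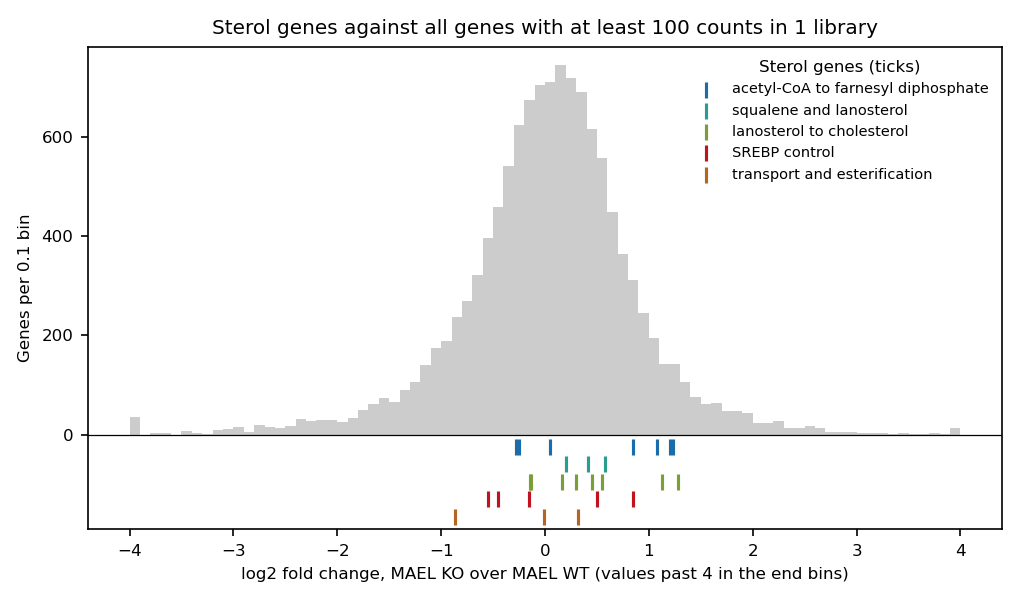
Histogram of log2 fold changes (x axis, in bins of 0.1, with values past 4 in the end bins) over the 12023 genes that reached 100 counts in either library, with ticks for 26 of the 28 genes, coloured by role. The 26 sit between -0.87 for NPC1 and 1.28 for EBP, with 5 past 1 and 0 past -1.

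The role groups had median log2 fold changes of 0.84 for acetyl-CoA to farnesyl diphosphate, 0.42 for squalene and lanosterol, 0.38 for lanosterol to cholesterol, -0.15 for SREBP control and 0.30 for transport and esterification. The last is the value of NPC1L1 itself, and over the 3 transport genes that reached 100 counts the median was -0.01. The 18 enzymes together had a median of 0.44, with 14 above 0 and 4 below, where 48.0% of all tested genes were above 0. All 18 reached 100 counts, and over all genes that did so the median was 0.066, higher than over all tested genes. The summed level of the 18 enzymes was 507.6 FPKM in MAEL WT and 734.7 in MAEL KO. Their share of all FPKM was 0.188% and 0.217%. The summed levels of the 5 control genes were 115.3 and 114.2 FPKM (0.0428% and 0.0338% of all FPKM), and those of the 5 transport genes 54.76 and 42.87 (0.0203% and 0.0127%).

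Genes around the route were read from lists of known roles. Of 14 genes of SREBP processing and sterol-dependent turnover, 7 were above 0 and 7 below, where 48.0% of all tested genes were above 0. Over all genes that reached 100 counts, as these 14 did, the median was 0.066, with 9.23% past 1 and 9.16% past -1. In this list the median was 0.04, and 0 were past 1 in either direction. The ends were SEC24D (2214 and 1059 counts, log2 fold change -0.85), a coat protein of the vesicles that leave the endoplasmic reticulum, and SEC23A (3978 and 5178 counts, 0.59), its partner in that coat. C12orf49 was at -0.67 and ERLIN2 at 0.44. Of 11 genes of the isoprenoid branch, which uses farnesyl diphosphate for other products, 8 were above 0, against 48.0% of all tested genes, and 1 was past 1, near the 10.2% of all. That was PDSS1 (100 and 320 counts, 1.88), which builds the tail of coenzyme Q. COQ2, the next enzyme of that path, had 268 and 456 counts (0.97), DHDDS, of dolichol synthesis, 1290 and 616 (-0.86), and FNTA, a subunit of prenyl transferases, 1710 and 1285 (-0.20). The medians were 0.33 for this list and -0.04 for all tested genes. All 11 genes of the list reached 100 counts, and over all genes that did so the median was 0.066.

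Among 11 lipogenic targets of SREBP-1 the median was 0.12, with 1 past 1 in each direction. All 11 reached 100 counts. Over all genes that did so, 9.23% were higher and 9.16% lower past 1, near the shares of the list. ACLY, which makes cytosolic acetyl-CoA, had 5114 and 8975 counts (1.02), and FASN, fatty acid synthase, had 18283 and 30060 (0.93). ME1, which supplies NADPH, had 3107 and 1165 counts (-1.20), and LPIN1, a phosphatidate phosphatase, had 1109 and 501 (-0.94).

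Among 12 sterol traffic genes the median was -0.06. TMEM97, a sterol-regulated binding partner of NPC1, had 705 counts in MAEL WT and 2012 in MAEL KO (1.72), whereas NPC1 was lower. SCARB1, the HDL receptor, had 3151 and 5544 counts (1.03), GRAMD1A, a carrier of sterol from the plasma membrane, 4019 and 1644 (-1.08), and SCARB2 4523 and 2849 (-0.46). GRAMD1B had 10 and 0 counts and reached the 10 counts only through MAEL WT, so it is not read as lower. Taken as exact, the 10 would be 2.88-fold above a floor of 3 counts in MAEL KO, while its counting interval reaches a log2 of -0.95. Of 7 tested genes of the oxysterol and LXR side, which answers sterol excess, the median was 0.02. NR1H2, an LXR receptor, was at -0.77 (1889 and 958 counts), NR1H3, the other, at 0.22 (885 and 893), LPCAT3 at 0.46 and CYP27A1 at 0.51. ABCG1, a cholesterol exporter and LXR target, had 32 and 0 counts. It also reached the 10 counts only through MAEL WT and is not read as lower. Taken as exact, the 32 would be 9.22-fold above the floor, with an interval reaching -2.82. ACAT1, the mitochondrial thiolase and a counterpart of ACAT2, had 1792 and 3199 counts (1.05).

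**Figure D5:**
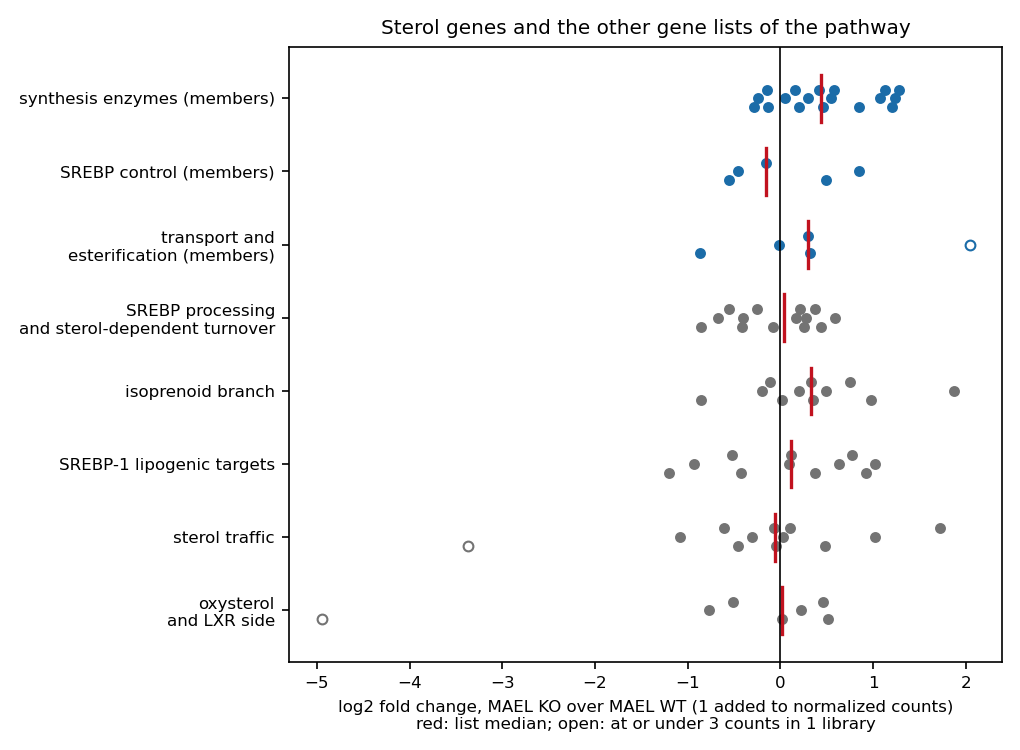
Log2 fold change (MAEL KO over MAEL WT) for each tested gene of 3 groups of the 28 genes and of the lists around the route, paralogs left out, 1 point per gene and a red line at each median. The plotted medians run from -0.15 for SREBP control to 0.44 for the 18 synthesis enzymes, and open points mark genes at or under 3 counts in 1 library.

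With 1 library per condition no difference has a replicate check, and the intervals hold counting error alone. PCR copies of 1 molecule were not marked, so the intervals may be too narrow even for that. Whether a second library of either genotype would show these differences was not tested.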

How the data were processed

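RNA of PLC8024 cells was sequenced as 1 MAEL WT and 1 MAEL KO library. The authors deposited whole-number read counts per gene, not normalized, and FPKM values, which equal the counts divided by gene length and by a library size 1.0989 (MAEL WT) and 0.91 (MAEL KO) times the total count. The submitters' processing notes name HISAT2 2.0.5, featureCounts 1.5.0-p3 and hg19. The gene coordinates in the tables are those of GENCODE 29 on GRCh38, and exonic lengths were equal for 28 of 28 genes. The strand setting is not given in the sources used here. The columns used number 2 per table, and 0 further columns of sample values were left unused.

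The 28 genes and all lists were chosen with earlier results of these data known. Counts were scaled by TMM (factor 1.10 in MAEL WT, 0.909 in MAEL KO) in edgeR 4.0.16 under R 4.3.3, and the log2 fold change took 1 added to the normalized counts. Intervals are 95% Clopper-Pearson limits of the MAEL KO share of each gene's counts, in SciPy 1.17.1. Tested genes had at least 10 counts in at least 1 library, and 3 counts was the floor for bounds. No p-value was computed, because 1 library per condition has no replicate error. Named were all 28 genes, the 2 genes at each end of each other list among those with at least 100 counts, the cell type markers and MAEL, while GRAMD1B, ABCG1 and the overlapping genes and pseudogenes were added after their values were seen. The log2 threshold of 2 is that of the study's methods. The study also set a cutoff on the adjusted p-value, which was not applied here. On simulated counts for 17370 genes with 200 changed by a log2 of 3, 200 were recovered and 22 of 17170 unchanged genes passed 2. The simulated counts came from 1 shared profile with counting error alone, and changes were put only in well-counted genes. The check therefore says nothing of clone or library differences or of the choice of scaling. Alternatives were DESeq2 1.42.0 size factors, total counts, ratios of FPKM plus 0.01, a prior of 0.1 or 5 counts, no count filter or one of 100, a table of protein-coding genes, a threshold of 1, and subtracting the chromosome's median. Promoter windows are from the RefSeq table on GRCh38.p14. Python 3.11.15, pandas 2.3.3, NumPy 2.4.6 and matplotlib 3.10.9 were used.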

Additional observations from a re-analysis of the deposited data

How the results depend on the processing

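Over 10 settings, 222 of 278 values of single genes stayed inside their counting interval, 52 moved outside it in the same direction or from an interval that held 0, and 4 reversed. With total counts, 0 genes were past 2, 2 above 1 and 1 below -1, the median of the 28 was 0.037, the role medians were 0.57 (acetyl-CoA to farnesyl diphosphate), 0.14 (squalene and lanosterol), 0.10 (lanosterol to cholesterol) and -0.43 (SREBP control), that of transport and esterification was 0.03, and LSS (-0.076) and SC5D (-0.11) reversed. Genes past the threshold numbered 0 with a prior count of 5, 0 with at least 100 counts and 6 with a threshold of 1, SOAT2 included. Subtracting the median of the 20 nearest tested genes, an alternative chosen after seeing the data, left 0 past 2, gave medians of 0.60 for lanosterol to cholesterol and -0.059 for SREBP control, and reversed PMVK (0.31) and MSMO1 (0.63). By its construction that setting removes a shift shared by neighbours. With DESeq2 size factors, FPKM ratios, both prior counts, the count filters and protein-coding genes alone, 0 single genes left their interval. The count filters keep the main scaling and prior, so values of single genes could not move there. The library sizes behind the FPKM values were near the TMM sizes, so those values could hardly move. The 222 include all of these. With total counts, 24 of the 28 genes moved, 2 reversed and 2 stayed inside their interval. That scaling shifts all genes nearly alike, and the median of all tested genes was -0.31 there. With it, as with TMM, 20 of the 28 genes were above the median of all tested genes. Subtracting the chromosome median moved 10 genes and reversed 0. No replicate could be left out and no paired analysis was possible because each condition had 1 library. Depth limits SOAT2 (2 and 10 counts) and NPC1L1 (42 and 45), for which no direction (NPC1L1) or only a wide ratio (SOAT2) was had.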

Other observations

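Members were also set beside their chromosomal neighbours, as values with no test. The 20 tested genes nearest to MSMO1 had a median log2 fold change of -0.77, those nearest to HSD17B7 -0.64 and those nearest to PMVK -0.59, all below the gene itself (-0.14, 0.55 and -0.28). Around NSDHL the median was -0.38 and around IDI1 -0.31, where the genes themselves were at 1.13 and 1.21. Of the genes that were lower, NPC1, SCAP and SREBF2 had neighbours with medians above the gene itself, at 0.12, 0.19 and -0.17. PMVK and MSMO1 were also lower, but their neighbours were lower still. Some higher genes went with their neighbours, which had medians of 0.36 around TM7SF2 (itself 0.46) and 0.21 around INSIG1 (0.84). The neighbours of HSD17B7, NSDHL and IDI1 did not share the rise. Neighbours of the remaining genes are not given here.

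Pseudogenes named after 3 of the genes had fewer counts than the genes themselves. HSD17B7P2 had 110 counts in MAEL WT and 113 in MAEL KO, beside 757 and 958 for HSD17B7. The pseudogenes of CYP51A1 summed to 13 and 26 counts, and those of FDPS to 9 and 9. RUSC1-AS1, which overlaps 18.6% of the exonic bases of FDPS, had 319 and 225 counts, and AC114947.2, which overlaps 15.0% of those of HMGCS1, had 15 and 55.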
